A study of Mus musculus and Homo sapiens
Mus musculus with 14 samples.

Results

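The members described here are the small structured noncoding RNAs of the nuclear genome, that is, genes that the mouse annotation classes as misc_RNA, snRNA, snoRNA, scaRNA, ribozyme or miRNA. A gene was taken when its symbol stood once in the authors' gene table and it had 1 or more unique molecular identifiers (UMIs) over the 12 libraries of the retinal layers. Of 4479 such symbols, 307 met this rule, among 24460 genes in the layer table. They comprised 99 miRNA, 93 snRNA, 84 snoRNA, 24 misc_RNA, 4 scaRNA and 3 ribozyme genes. They were thus chosen by their UMI counts over those libraries, so their presence there is a description and supports nothing.

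Light-Seq reverse transcribes RNA in place in fixed cells or sections with a primer of random bases that ends in 3 G, so that RNA without a poly(A) tail can be copied, and light then attaches a DNA barcode to cDNA in hand-drawn regions. The outer nuclear layer (ONL), the bipolar cell layer (BCL) and the ganglion cell layer (GCL) were barcoded in 4 retinal sections of 1 wild-type CD1 IGS mouse in the third postnatal week. TH+ amacrine cells, the dopaminergic amacrine cells stained for tyrosine hydroxylase, and TH- amacrine cells were barcoded in 5 wild-type retinal sections of the same strain and age, with a pool of only a few TH+ cells in a section. In 3 wells of a mixed culture, mouse 3T3 cells, a fibroblast line, and human HEK cells, an embryonic kidney line labelled HEK293T and called HEK293 in the study's methods, which carried eGFP under a CMV promoter, received a barcode each. The sections of the layers came from 1 animal, and the study's methods speak of one source animal for the amacrine work too, so p-values measure the spread between sections and not between animals.

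These RNAs work as parts of ribonucleoproteins. Y RNAs are short RNA polymerase III transcripts that fold into a stem and a loop and bind the protein Ro60 through the stem and the La protein, encoded by Ssb, at the 3′ end of the transcript. Spliceosomal snRNAs assemble with Sm proteins into the particles that remove introns, snoRNAs and scaRNAs guide the modification of ribosomal RNA and of snRNAs, RNase P RNA (Rpph1) cuts the leader from precursor tRNAs, and miRNA hairpins are trimmed by Drosha and Dicer to mature miRNAs that load into Argonaute proteins. Most have no poly(A) tail, so libraries primed on poly(A) usually miss them.

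Retinal libraries held 30317 to 801105 UMIs, with the TH+ libraries at the low end (30317 to 87449), and the 3T3 wells held 135565 to 206187. The labels were checked against markers of each layer. The 6 rod genes held 5.37% to 6.69% of UMIs in the ONL and 1.15% to 1.98% in the BCL, with 0.429% to 0.739% in the GCL. The 5 bipolar genes held 0.531% to 0.589% in the BCL and at most 0.0899% in the ONL, and the 5 ganglion genes held 0.349% to 0.391% in the GCL and at most 0.0410% elsewhere among the layers. The 4 dopaminergic genes held 0.208% to 0.429% in TH+ libraries and at most 0.0264% in TH- libraries.

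A pair of genes held nearly all of the signal. Rny1, which encodes the Y1 RNA, had 13796 of the 28130 member UMIs in the layers (49.0%), and Mir6236, annotated as a miRNA hairpin, had 11951 (42.5%). They were followed by Rny3, the gene of the Y3 RNA, with 854 UMIs. ENSMUSG00002076940, an annotated miRNA gene named Gm55286 in a later release, had 286 and Mir6240 had 191. Whether reads of ribosomal RNA fall on the rows of Mir6236 and Mir6240 was not tested, so their values, shares and ratios are those of the annotated rows. At the other end, 191 members had 1 UMI, 70 had 3 or more and 23 had 10 or more.

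The sequences of some well counted members, Mir6236 not among them, are shown because the primer ends in G. Its 3′ end can thus pair with a run of C in the RNA. Capitals mark each run of 3 or more C on the RNA strand, in the GRCm39 assembly. Rny1 lies at chr6:47765003-47765114 on the minus strand and Rny3 at chr6:47758558-47758659 on the plus strand, 6343 bases apart, and neither overlaps another annotated gene.
Rny1: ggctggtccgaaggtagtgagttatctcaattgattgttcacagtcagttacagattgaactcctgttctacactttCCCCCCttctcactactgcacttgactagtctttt
Rny3: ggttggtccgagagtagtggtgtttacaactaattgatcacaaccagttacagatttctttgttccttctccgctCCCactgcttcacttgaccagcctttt
The Y RNAs were 112 and 102 nt long, and 80 of 112 columns of their global alignment held the same base (71.4%), with 22 of the first 30 columns and 23 of the last 30. Rny1 carried 1 run, of 6 C, and Rny3 carried 1 run, of 3 C. Rny1 had 1 identical match in the genome and 2 further copies of 90% identity or more over at least 90% of its length, the nearest at 92.7%. The authors dropped reads with several matches, so reads that fit Rny1 and a copy alike were not counted. How far such copies affected the count of Rny1 was not tested.

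Mir6240 is shown as a well counted annotated miRNA hairpin with a RefSeq entry. It lies at chr5:114990009-114990125 on the plus strand and between genes, with no other copy over at least 90% of its length.
Mir6240: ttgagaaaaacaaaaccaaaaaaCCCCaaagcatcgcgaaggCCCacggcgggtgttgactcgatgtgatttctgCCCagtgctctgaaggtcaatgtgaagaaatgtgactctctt
Its mature form in RefSeq (GRCm38.p6) follows, with the seed, bases 2 to 8, in capitals.
mmu-miR-6240: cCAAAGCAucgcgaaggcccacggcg
A UMI on a hairpin row does not tell the mature form from a longer transcript, so rows of hairpins give no level of a mature miRNA.

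The snRNA and snoRNA members with the most UMIs and a test between layers include Gm25899 and Gm23442. Gm25899 lies at chr4:83445865-83446005 on the minus strand in an intron of Ccdc171, which is on the plus strand, and matched a gene named U4 in the authors' table at 92.2% over its whole length. U4 pairs with the U6 snRNA before the spliceosome is activated. Gm23442 lies at chr17:35381539-35381672 in an intron of Prrc2a, both on the minus strand.
Gm25899: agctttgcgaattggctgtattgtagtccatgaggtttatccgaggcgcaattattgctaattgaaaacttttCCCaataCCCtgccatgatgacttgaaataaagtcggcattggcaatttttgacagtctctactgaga
Gm23442: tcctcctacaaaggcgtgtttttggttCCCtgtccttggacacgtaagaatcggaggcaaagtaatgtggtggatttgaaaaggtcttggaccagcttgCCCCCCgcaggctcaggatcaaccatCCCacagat
Gm25899 held 2 runs of 3 C. Gm23442 held 3 runs, the longest of 6 C. Gm24141, the most counted snRNA member, held none, and neither did ENSMUSG00002076940, so a run of C was not present in every well counted member.

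The motif CCC, on the RNA strand alone, was searched in all 4479 symbols. It was present in 242 of the 307 counted genes (78.8%) and in 62.2% of the 4172 genes without a UMI in the layers, with median lengths of 111 and 107 nt. Among genes of 50 to 150 nt, 3.98% of the 1607 with no run were counted. The counted share was 7.93% of the 1551 genes with 1 run, 6.55% of the 611 with 2 runs and 8.84% of the 362 with 3 or more. The share was lowest in the genes without a run and did not increase steadily with their number. These shares describe the sequences, and the role of the primer was not tested.

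Members held 0.570% ± 0.0697 of UMIs in the ONL and 0.540% ± 0.0978 in the BCL, with 0.426% ± 0.0579 in the GCL (SD, n = 4 sections each). The share was 0.427% ± 0.0718 in TH+ and 0.385% ± 0.0401 in TH- libraries (SD, n = 5 sections each) and 0.0921% ± 0.00705 in 3T3 cells (SD, n = 3 wells). Every retinal library lay above every 3T3 well, and the ONL lay above the GCL and TH- libraries, while every other pair of retinal groups overlapped. Members needed a UMI in the layers, so small RNAs counted only in amacrine or 3T3 cells were left out, which favours the layers. The order of retinal and 3T3 libraries, and of layer and amacrine libraries, thus supports no difference, in the deeper run too. Without Rny1 and Mir6236 the share was 0.0525% in the ONL, 0.0475% in the BCL, 0.0320% in the GCL, 0.0181% in TH+, 0.0235% in TH- and 0.0302% in 3T3 libraries. A deeper run of 3T3 well 2 gave 0.170% for all members against 0.0994% in the first run, still below every retinal library, and 0.109% against 0.0335% without that pair, above every retinal library. By UMIs, Rny1 ranked 29 of 19198 detected genes in the ONL, 20 of 17221 in the BCL and 29 of 20637 in the GCL. It ranked 35 of 13727 in TH+, 53 of 17491 in TH- and 171 of 13172 in 3T3 cells.

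**Figure D1:**
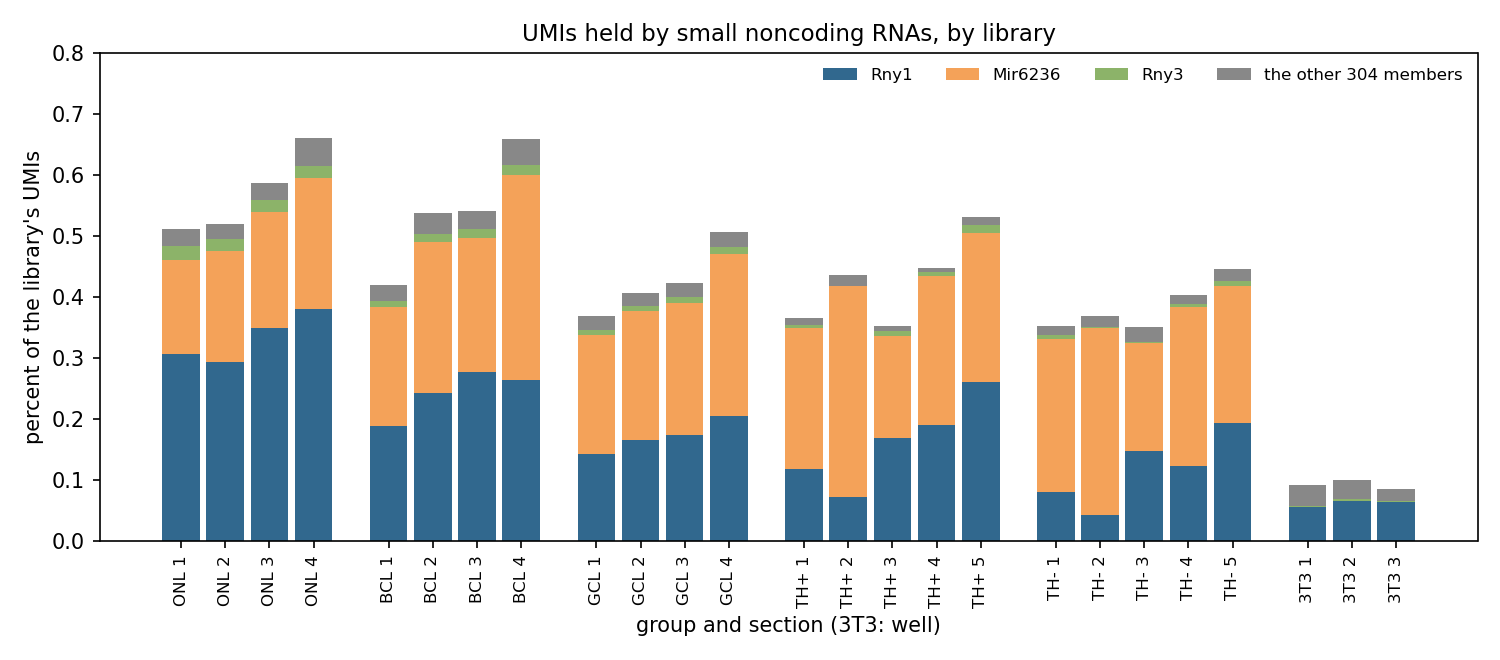
Percent of each library's UMIs held by Rny1, Mir6236, Rny3 and the other members, with 1 bar for each library (4 sections per layer, 5 per amacrine group, 3 wells of 3T3 cells). Retinal bars reach 0.351% to 0.661% and 3T3 bars 0.0854% to 0.0994%, and the Mir6236 part is missing from the 3T3 bars.

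The Y RNAs were highest in the photoreceptor layer, the ONL. Between the BCL and the GCL the main test passed for Rny1 and not for Rny3. Rny1 stood at 3058, 2938, 3497 and 3807 CPM, the UMIs of a gene scaled to the total of its library, in the ONL of sections 1 to 4. It stood at 1883, 2418, 2764 and 2635 CPM in the BCL and, lower still, at 1424, 1658, 1744 and 2056 CPM in the GCL. The ONL libraries lay above all others, those of the BCL and GCL overlapped, and in each of the 4 sections the order was ONL, then BCL, then GCL. The log2 fold change was 0.77 (SE 0.12, adjusted p = 3.02e-07) between the ONL and the BCL, 1.10 (SE 0.12, adjusted p = 5.17e-12) between the ONL and the GCL and 0.33 (SE 0.12, adjusted p = 0.0247) between the BCL and the GCL, by edgeR's quasi-likelihood test. The smallest of these differences lost its call without section 2 (adjusted p = 0.116), without section 3 (adjusted p = 0.190) and with no low-count filter (adjusted p = 0.260).

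Rny3 ran the same way at a lower level. It had 235, 187, 205 and 203 CPM in the ONL and 113, 139, 152 and 168 CPM in the BCL, with 84.1, 85.4, 103 and 125 CPM in the GCL. It was higher in the ONL than in the BCL (log2 fold change 0.87, SE 0.17, adjusted p = 1.89e-05) and the GCL (1.25, SE 0.14, adjusted p = 1.36e-11). Against the GCL, the BCL value was 0.38 (SE 0.18, adjusted p = 0.102), which did not pass the test, and it passed on library totals (0.55, adjusted p = 0.0139) and with edgeR's default filter (0.43, adjusted p = 0.0494). Per kb of gene length Rny1 stood at 29689 CPM and Rny3 at 2034 CPM in the ONL. UMIs of Rny3 were 5.15% to 7.67% of those of Rny1 in each of the 12 layer libraries, while both were higher in the ONL than in the other layers.

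Ro60, the protein partner of Y RNAs, is encoded by an mRNA that changed in the same direction. Ro60 mRNA stood at 218, 245, 233 and 238 CPM in the ONL and at 124, 115, 163 and 143 CPM in the BCL, with 67.5, 94.4, 90.7 and 73.4 CPM in the GCL. The layers did not overlap. It was higher in the ONL than in the BCL (log2 fold change 1.11, SE 0.16, adjusted p = 5.95e-08), higher in the ONL than in the GCL (1.68, SE 0.13, adjusted p = 2.33e-16) and higher in the BCL than in the GCL (0.58, SE 0.18, adjusted p = 0.0101). Ssb, which encodes the La protein, was higher in the ONL than in the GCL (0.70, SE 0.19, adjusted p = 0.00125). Of the 6 listed symbols for partners of Y and vault RNAs, 5 were among the counted genes and 4 were tested. Of these 4, 1 was higher in the ONL than in the BCL, 2 in the ONL than in the GCL and 1 in the BCL than in the GCL, with none lower, beside 18.5%, 29.3% and 16.1% of all genes higher. The rod markers, given above, ran in the same order of layers, and their part in these values was not tested. In libraries pooled over many cells, fewer cells of a type and less RNA per cell cannot be told apart.

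**Figure D2:**
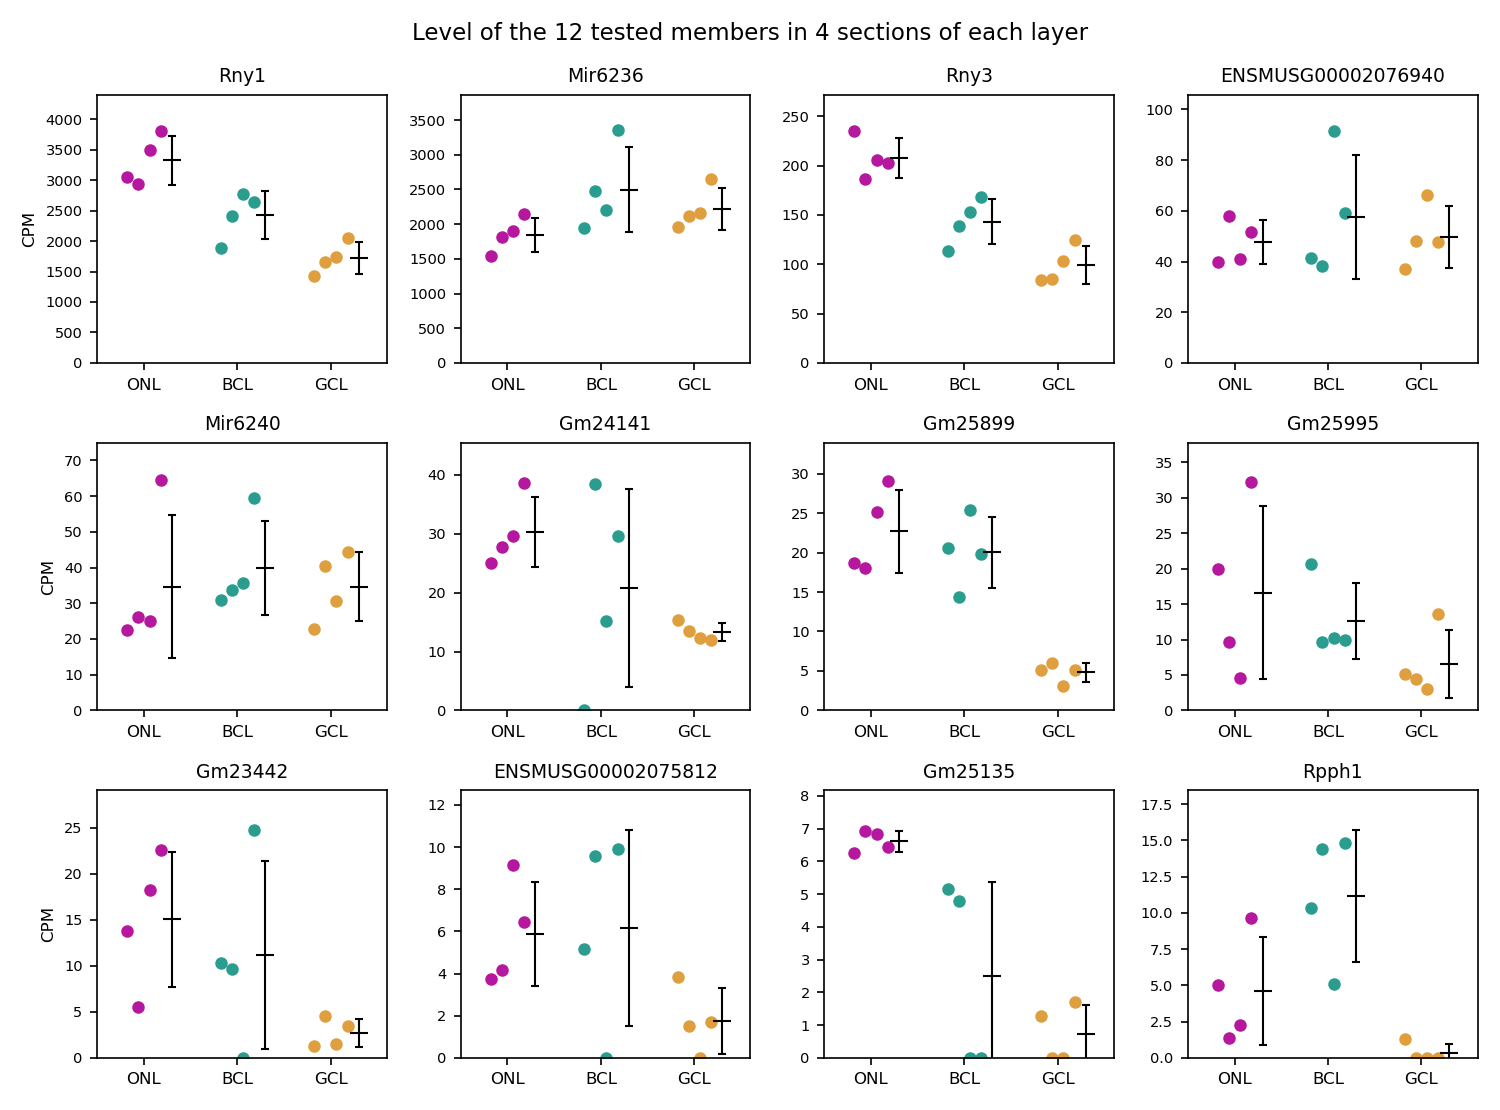
CPM of the 12 members that passed the low-count filter, with 1 point for each of 4 sections in the ONL, BCL and GCL, and the mean with its SD in black, cut at 0. Rny1 and Rny3 lie highest in the ONL (2938 to 3807 CPM and 187 to 235 CPM), while Mir6236 lies between 1542 and 3357 CPM in all layers.

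Of the 307 members, 12 passed the filter for the test, and counts among them describe these 12 alone. For the ONL against the BCL, 2 of 12 were called, both higher in the ONL, beside 36.7% of all 11324 genes tested. For the ONL against the GCL, 8 of 12 were called, all of them higher in the ONL, beside 61.5% of all genes. For the BCL against the GCL, 3 of 12 were called, all higher in the BCL, beside 36.5% of all genes. By direction, 18.5%, 29.3% and 16.1% of all genes were higher in the first layer named. Gm25135 reached the filter's cutoff of 5.86 CPM in the ONL alone, and Gm23442, Rpph1 and ENSMUSG00002075812 reached it in no GCL library, while Gm25899 and Gm25995 reached it in 1, so these entered the test through the layers where they were high, and their tests against the GCL are counted here but support nothing.

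The scale mattered for the ONL. With library totals in place of TMM factors, the median of all genes for the ONL against the BCL moved from 0.09 to -0.25, and the change of Rny1 was 0.45 (adjusted p = 0.00116) in place of 0.77. The median moved from 0.00 to -0.16 for the ONL against the GCL and from -0.02 to 0.15 for the BCL against the GCL. Relative to that median both scales gave Rny1 higher in the ONL.

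**Figure D3:**
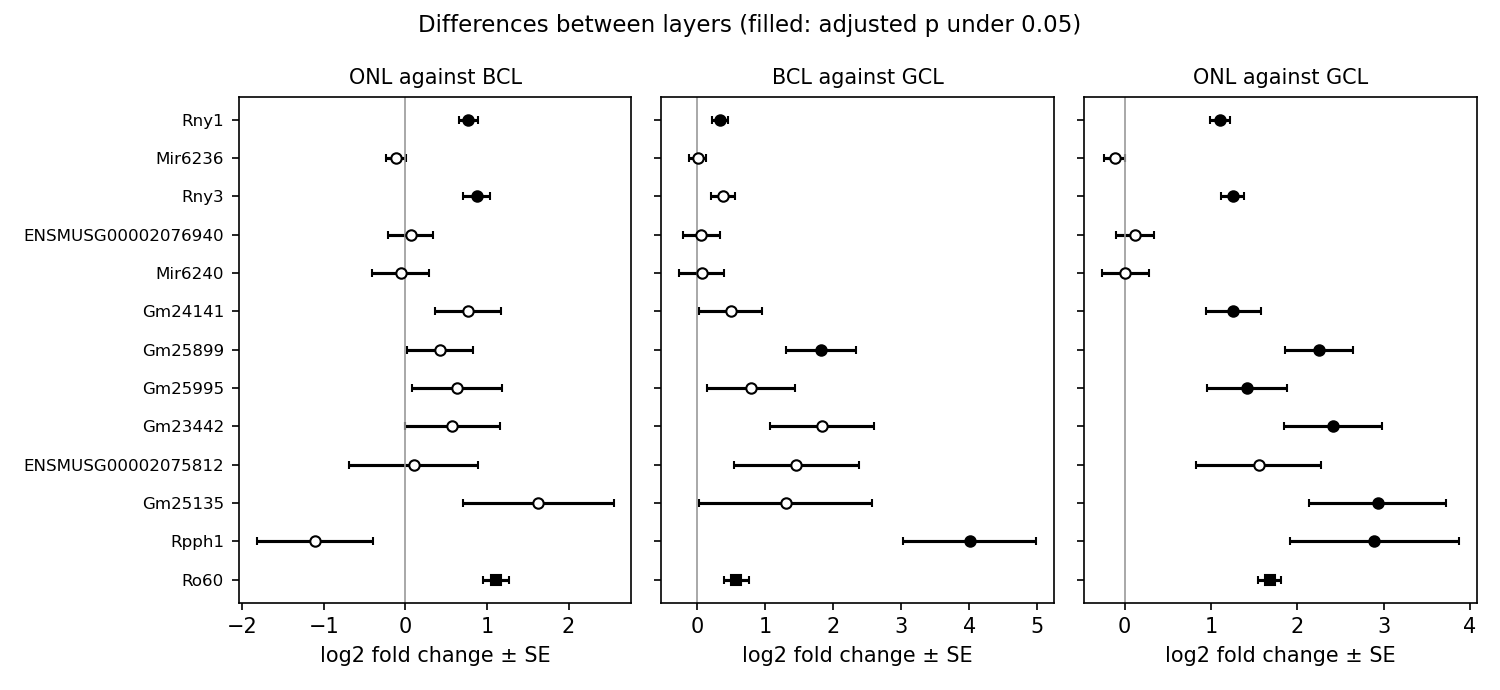
Log2 fold change with its SE of the 12 tested members (circles) and of Ro60 (square) in the 3 comparisons of layers, filled where adjusted p was under 0.05 and with a separate horizontal scale for each comparison. Of the circles, 2, 3 and 8 are filled from left to right, all to the right of 0.

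Mir6236 did not follow the Y RNAs. It had 1542, 1819, 1895 and 2140 CPM in the ONL and 1945, 2480, 2205 and 3357 CPM in the BCL, with 1957, 2115, 2158 and 2645 CPM in the GCL. On this scale the ONL was lower than both other layers in 4 of 4 sections, although the groups overlapped. With TMM factors none of the log2 fold changes passed the test: -0.12 (SE 0.13, adjusted p = 0.514) for the ONL against the BCL, -0.11 (SE 0.12, adjusted p = 0.426) for the ONL against the GCL and 0.00 (SE 0.12, adjusted p = 0.995) for the BCL against the GCL. On library totals it was called lower in the ONL than in the BCL (-0.44, adjusted p = 0.00298) and the GCL (-0.27, adjusted p = 0.0455).

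The ratio of Rny1 to Mir6236 within a library does not depend on the scale. It was 1.62 to 1.98 in the ONL and 0.785 to 1.25 in the BCL, with 0.728 to 0.808 in the GCL. All ONL libraries had more Rny1 than Mir6236, and all GCL libraries had less.

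Mir6240 and ENSMUSG00002076940 were likewise without a call between layers. Mir6240 stood at 34.6 ± 20.0 CPM in the ONL and 39.9 ± 13.1 in the BCL, with 34.6 ± 9.69 in the GCL (SD, n = 4). ENSMUSG00002076940, at chr8:85838641-85838697 in an intron of Zfp791 on the same strand, stood at 47.7 ± 8.70, 57.6 ± 24.4 and 49.7 ± 12.1 CPM (SD, n = 4). Its log2 fold changes ran from 0.05 to 0.12, with standard errors of 0.22 to 0.28, and those for the ONL turned negative on library totals (-0.27 against the BCL and -0.05 against the GCL). It had 7 further genomic copies of 90% identity or more, and its host had 15 UMIs in all 12 libraries against 286 on the hairpin. ENSMUSG00002075812, within Vav2 on the other strand, had 22 UMIs, 12 of them from the ONL. Its log2 fold change for the ONL against the GCL was 1.56 (SE 0.72, adjusted p = 0.0580), and it was called without section 1 (2.41, adjusted p = 0.0309), but it entered the test through the ONL and BCL, so this supports no difference.

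Gm24141, Gm25899, Gm25995 and Gm25135, the snRNA members with the most UMIs, were U4-like. They and Gm26254 each matched U4 best among the named small RNAs, over 53.8% to 100% of their length. Gm24141 had 20, 20, 13 and 12 UMIs in the ONL and 0, 8, 3 and 6 in the BCL, with 12, 9, 8 and 7 in the GCL. On the CPM scale this was 30.2 ± 5.94 in the ONL and 13.3 ± 1.51 in the GCL (SD, n = 4), without overlap.

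Of these, 4 were tested. Gm24141 was higher in the ONL than in the GCL, where 61.5% of all genes were called and 29.3% were higher, with a log2 fold change of 1.26 (SE 0.32, adjusted p = 0.000639). Gm25899 and Gm25995 each reached the filter's cutoff in 1 GCL library and Gm25135 in none, so they entered the test through the other layers and their tests against the GCL support no difference. Gm25995 stood at 4.57 to 32.2 CPM in the ONL and 9.60 to 20.6 CPM in the BCL, with 3.07 to 13.7 CPM in the GCL, and all 3 layers overlapped. Gm25135 had 15 UMIs in the ONL and 2 in the GCL, a ratio of UMI rates of 8.87 with an exact 95% counting interval of 2.06 to 79.97. That interval covers counting error only and supports no difference either. Adgrf5, an adhesion receptor and the host of Gm25135, was called lower in the ONL than in the GCL (-2.85, SE 0.49, adjusted p = 1.23e-06). Adgrf5 reached at most 4.99 CPM in the ONL, below the filter's cutoff, and entered the test through the other layers. Its test against the GCL thus supports no difference.

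Gm25899 was counted most in the ONL and BCL. It had 18.7, 17.98, 25.1 and 29.0 CPM in the ONL and 20.6, 14.4, 25.4 and 19.8 CPM in the BCL, with 5.10, 5.99, 3.07 and 5.12 CPM in the GCL. The ONL and BCL libraries overlapped and all lay above the GCL. Summed over the 5 U4-like members the level was 79.9 ± 24.3 CPM in the ONL and 59.7 ± 7.23 in the BCL, with 27.6 ± 5.83 in the GCL (SD, n = 4). Such genes share sequence, so how reads were split among them is uncertain, and rows named U4 carried 12 UMIs.

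Genes of spliceosomal proteins that were called between the ONL and the GCL were higher in the ONL. Of 22 listed genes 17 were tested, and 8 were higher and none lower in the ONL than in the GCL, beside 61.5% of all genes called and 29.3% higher. DESeq2 called 5 of the 17. The median log2 fold change was 0.47 beside 0.00 over all genes. Prpf8, the central scaffold of the spliceosome, differed by 0.87 (SE 0.11, adjusted p = 1.26e-09), Snrnp200, the helicase that unwinds U4 from U6, by 0.79 (SE 0.11, adjusted p = 8.65e-09), Prpf3, a protein of the U4/U6 particle, by 1.36 (SE 0.32, adjusted p = 0.000289) and Snrpb, an Sm protein, by 0.85 (SE 0.20, adjusted p = 0.000327). Against the BCL 3 of 17 were higher in the ONL, beside 18.5% of all genes, and 5 of 17 were higher in the BCL than in the GCL, beside 16.1%. DESeq2 called 1 and 3 of the 17 there.

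Gm23442 was the most counted snoRNA member. It had 11, 4, 8 and 7 UMIs in the ONL and 2, 2, 0 and 5 in the BCL, with 1, 3, 1 and 2 in the GCL. On the CPM scale the ONL held 5.53 to 22.6 and the GCL 1.27 to 4.50, without overlap. The ONL rate was 5.07 times that of the GCL with an exact 95% counting interval of 2.18 to 13.7, and the BCL rate 4.31 times with an interval of 1.43 to 13.6. It reached the filter's cutoff in 3 ONL, 3 BCL and no GCL libraries, so its test and these intervals against the GCL support no difference. Its host Prrc2a had 6705 UMIs and was 0.49 higher in the ONL than in the GCL on the log2 scale (SE 0.10, adjusted p = 4.02e-05).

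Gm24966 was counted mainly in the GCL. It matched SNORD115, a family of brain-expressed box C/D snoRNAs, at 92.0%, and lies at chr7:58993821-58993899 in an intron of Snhg14. It had 0 UMIs in the ONL, where 3 counts allow up to 1.32 CPM, with 1 UMI in the BCL and 5, 4, 6 and 2 UMIs in the GCL. For its GCL rate over its ONL rate, from pooled UMIs, the exact 95% counting interval began at 3.49. That interval covers counting error only and not the spread between sections. Gm24966 did not pass the filter. It enters a test only through the GCL, so no test of it is given and the interval supports no difference. Snhg14 was lower in the ONL than in the GCL by edgeR (-2.45, SE 0.28, adjusted p = 3.82e-11).

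For the snoRNA proteins, edgeR calls fell in the ONL against the GCL, where 61.5% of all genes were called. That share was 36.7% for the ONL against the BCL and 36.5% for the BCL against the GCL. A difference between these comparisons was not tested. Of the 4 listed box C/D proteins 2 were tested, and for the ONL against the GCL Nop58 was higher (0.63, SE 0.24, adjusted p = 0.0216) and Nop56 lower (-0.96, SE 0.28, adjusted p = 0.00281), with none called in the other layer comparisons, where an unadjusted p was under 0.05 for 0 and 1 of them and DESeq2 called 0. Of the 6 listed box H/ACA proteins 5 were tested, with none called in the other comparisons by edgeR or DESeq2 (1 and 0 at an unadjusted p under 0.05), and Naf1, an assembly factor (1.93, SE 0.41, adjusted p = 5.95e-05), and Wrap53, which brings scaRNAs to Cajal bodies (1.20, SE 0.47, adjusted p = 0.0224), were higher in the ONL than in the GCL. Naf1 stood at 3.00 to 7.68 CPM and Wrap53 at 1.71 to 9.22 CPM in the GCL, around the filter's cutoff. They entered the test mainly through the other layers, so their tests against the GCL support no difference. For the ONL against the GCL DESeq2 called 1 of the box C/D and 1 of the box H/ACA genes. Uncalled log2 fold changes are given for the ONL against the BCL and then the BCL against the GCL. They were 0.20 and 0.43 for Nop58 and -0.17 and -0.80 for Nop56. Those of Naf1 were 1.20 and 0.72, and those of Wrap53 were 0.19 and 1.01. Scarna2, the most counted scaRNA, had 23 UMIs in 11 of 12 layer libraries, at 1 to 4 each.

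Rpph1 was counted mainly in the BCL and ONL, on few UMIs. It had 4, 1, 1 and 3 UMIs in the ONL and 2, 3, 1 and 3 in the BCL, with 1, 0, 0 and 0 in the GCL. Given library sizes, the BCL rate was 30.2 times that of the GCL with an exact 95% counting interval of 4.18 to 1323, and the ONL rate was 10.6 times that of the GCL with an interval of 1.48 to 466.7. It entered the test through 3 BCL libraries and 1 ONL library, so its test and these intervals against the GCL support no difference. The gene overlaps exons of Parp2 and Ccnb1ip1, and Parp2 held 79 UMIs, with log2 fold changes of -0.81 (SE 0.60, adjusted p = 0.310) for the BCL and 0.76 (SE 0.35, adjusted p = 0.0568) for the ONL against the GCL. Of the 11 listed proteins of RNase P and RNase MRP 8 were tested, with none called for the ONL against the BCL by edgeR or DESeq2 (1 at an unadjusted p under 0.05) and 1 of 8 called in each comparison with the GCL. The share of all genes called was 36.7% in the former, and against the GCL it was 61.5% in the ONL and 36.5% in the BCL. Called lower against the GCL by edgeR were Rpp14 in the BCL (-2.61, SE 1.06, adjusted p = 0.0481), where DESeq2 called 0 of the list, and Rpp25 in the ONL (-1.91, SE 0.56, adjusted p = 0.00277). Rpp14 reached at most 5.08 CPM in the BCL and Rpp25 at most 4.15 CPM in the ONL, below the filter's cutoff. They entered the test through other layers, so these tests support no difference.

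Most miRNA members were near the limit of detection. Of 99, 68 had 1 UMI and 6 had 10 or more, and 52 had a RefSeq entry. Among the 78 mature sequences of 51 of these genes, 76 seeds were different and 1 was shared, CAGUGGG, by Mir194-2, Mir6926 and Mir7055, each with 1 UMI. Mir1188 had 6 UMIs and lies in an exon of Rtl1 and an intron of Rian, and Mir6972 had 5 and lies in an exon of Nelfe.

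Most members lay inside another gene, while most UMIs did not. Of the 307 members, 116 lay in an intron of a gene on the same strand, 82 in an intron on the other strand, 37 over an exon and 72 between genes, and the last held 27140 of 28130 UMIs. Introns on the same strand held 661 UMIs, those on the other strand 247 and exons 82. The authors counted with the default settings of featureCounts, which take no account of strand, so reads of a host and of a member within it cannot be told apart for these 235 genes. The 13 miRNA members over an exon held 23 UMIs and the 12 snoRNA members over an exon held 25.

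Genes that process or load miRNAs were all tested. Of these 13, 8 were higher and none lower in the ONL than in the GCL, 5 were higher and 1 lower in the ONL than in the BCL, and 3 were higher in the BCL than in the GCL. Over all genes 61.5%, 36.7% and 36.5% were called in these comparisons and 29.3%, 18.5% and 16.1% were higher, so the called share of the list for the ONL against the GCL was near that of all genes. DESeq2 called 8, 4 and 2 of the 13. Tnrc6b, an Argonaute partner in silencing, differed by 2.24 between the ONL and the GCL (SE 0.11, adjusted p = 2.45e-25), Dicer1 by 0.98 (SE 0.13, adjusted p = 6.55e-09), Ago2 by 0.74 (SE 0.11, adjusted p = 2.03e-08) and Ago4 by 1.39 (SE 0.27, adjusted p = 1.61e-05). The median of the list was 0.70 there, beside 0.00 over all genes.

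Hosts of small RNAs split in direction. Of 29 listed, 11 were tested, and 2 were higher and 5 lower in the ONL than in the BCL, 2 higher and 5 lower in the ONL than in the GCL, and 3 higher and 4 lower in the BCL than in the GCL, beside 36.7%, 61.5% and 36.5% of all genes called. The transcripts that carry the neuronal miRNA miR-124 were among the higher ones, with Mir124-2hg at 669, 719, 756 and 812 CPM in the ONL and 640, 648, 528 and 633 CPM in the BCL, against 187, 154, 135 and 155 CPM in the GCL. The log2 fold change of Mir124-2hg for the ONL against the GCL was 2.37 (SE 0.12, adjusted p = 1.56e-24) and that of Mir124a-1hg 2.56 (SE 0.14, adjusted p = 4.45e-23). Snhg11 (-3.01, SE 0.20, adjusted p = 1.76e-19) and Rian (-2.50, SE 0.24, adjusted p = 3.63e-13) were lower there.

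Remaining partner lists gave these counts, to be read beside 36.7%, 61.5% and 36.5% of all genes called for the ONL against the BCL, the ONL against the GCL and the BCL against the GCL. Of the 7 proteins of the 7SK particle, which holds back transcription elongation, 6 were tested, with 2, 3 and 1 higher and none lower in the ONL against the BCL, the ONL against the GCL and the BCL against the GCL, and DESeq2 called 1, 3 and 1. Ccnt1, a cyclin of the elongation kinase, was 1.75 higher in the ONL than in the GCL (SE 0.16, adjusted p = 3.15e-14). Of the 11 listed symbols for the signal recognition particle and its receptor 7 were tested. None was called for the ONL against the BCL by edgeR or DESeq2 (2 at an unadjusted p under 0.05). By edgeR, Srp54c was higher (2.05, SE 0.44, adjusted p = 7.62e-05) and Srp14 lower (-1.02, SE 0.28, adjusted p = 0.00144) in the ONL than in the GCL. Srp72 was lower in the BCL than in the GCL (-0.46, SE 0.18, adjusted p = 0.0420), where DESeq2 called 0 of the list. Srp54c stood at 2.55 to 5.99 CPM in the GCL, around the filter's cutoff. It entered the test mainly through the other layers, so its test against the GCL supports no difference. Of 5 long noncoding RNAs kept in the nucleus 4 were tested, and Meg3 was lower in the ONL than in the GCL (-2.68, SE 0.14, adjusted p = 4.53e-24) and Malat1 higher (0.31, SE 0.12, adjusted p = 0.0238), with 1 higher and 2 lower there, 3 lower in the ONL than in the BCL, and 1 higher and 2 lower in the BCL than in the GCL. DESeq2 called 2, 3 and 3 of them. Miat was among the lower ones in both comparisons with the GCL. It stood at 0 to 7.49 CPM in the ONL and 4.80 to 9.89 CPM in the BCL, around the filter's cutoff. It entered the test mainly through the GCL, so these tests of Miat support no difference. Malat1 was higher in the ONL in sections 2 to 4 and lower in section 1 by CPM (1549 against 1856 CPM).

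In amacrine cells, Rny1 was higher in TH+ than in TH- cells of each section, and the call depended on the model. It had 1184, 720, 1694, 1903 and 2606 CPM in TH+ cells of sections 1 to 5 and 802, 417, 1473, 1223 and 1931 CPM in TH- cells. TH+ was higher in 5 of 5 sections, but the groups overlapped, since the values of both ran from low in section 2 to high in section 5. The log2 fold change was 0.40 (SE 0.24, adjusted p = 0.665) without the section in the model and 0.49 (SE 0.11, adjusted p = 0.00148) with the section as a block, which pairs the libraries by section. The 6 rod genes held 1.36% to 3.52% of UMIs in TH+ and 0.781% to 2.08% in TH- libraries. They too were higher in TH+ in 5 of 5 sections and lowest in section 2 of both groups. Over the other sections their order differed from that of Rny1. They held 2.04% in section 1 and 1.58% in section 5 of TH- libraries, and 3.52% in section 4 and 3.39% in section 5 of TH+ libraries. The 5 amacrine genes and the 4 genes of Müller glia, the radial glia of the retina, were lower in TH+ in each section. The part of these cells in the Rny1 values was not tested.

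Mir6236 moved with the section too. It had 2307, 3453, 1670, 2444 and 2441 CPM in TH+ cells and 2511, 3072, 1771, 2611 and 2241 CPM in TH- cells of sections 1 to 5. Section 2 was highest in both groups, where Rny1 was lowest, and section 3 was lowest. TH+ was higher in 2 of 5 sections, and the log2 fold change was 0.02 (SE 0.17, adjusted p = 0.990). The ratio of Rny1 to Mir6236 ran from 0.209 to 1.07 in TH+ and from 0.136 to 0.862 in TH- libraries. Malat1 was highest in section 2 too, at 5500 CPM in TH+ and 6839 CPM in TH- libraries. For that section the study reports the largest share of intronic reads among the amacrine replicates. The part of such differences between sections in these values was not tested.

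**Figure D4:**
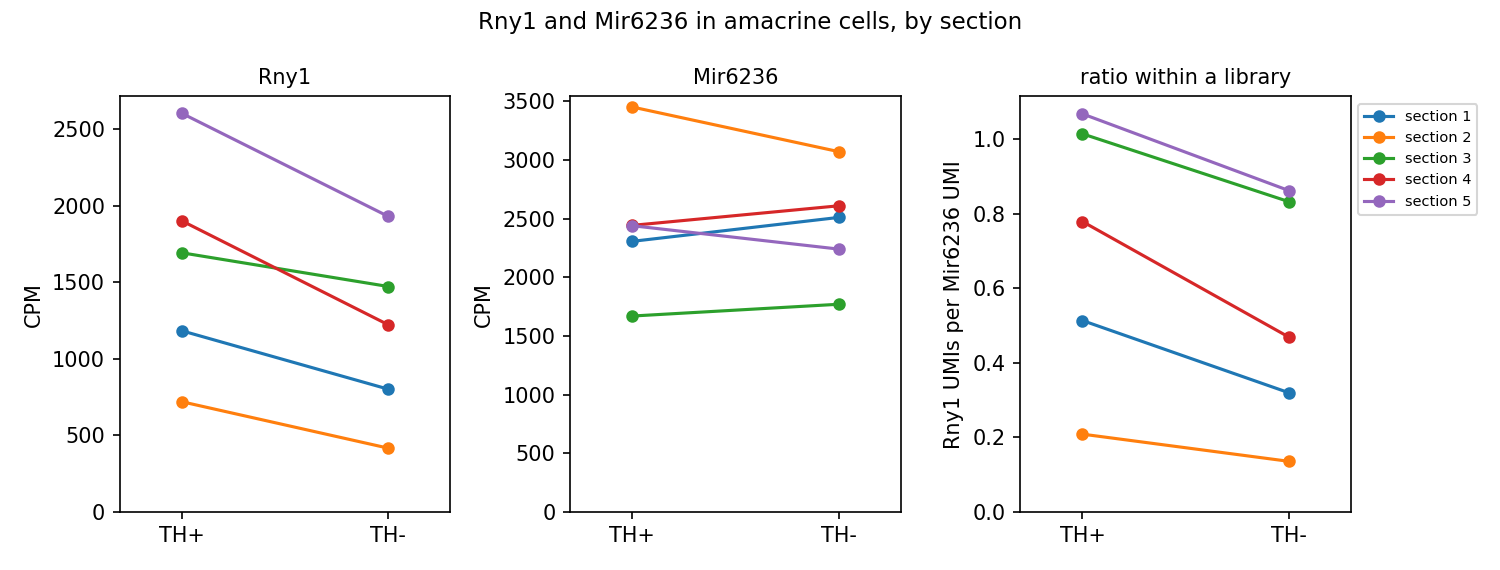
CPM of Rny1 and of Mir6236 and their ratio in TH+ and TH- amacrine cells, with 1 line for each of 5 sections. Every Rny1 line falls from TH+ to TH-, from 720 to 417 CPM in section 2 and from 2606 to 1931 CPM in section 5, while Mir6236 lines run in both directions.

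Of the 75 members detected in the amacrine libraries 4 passed the filter, and none was called by edgeR, beside 0.83% of 6021 genes. At an unadjusted p under 0.05 there was 1, beside 8.85% of all genes, and DESeq2 called 0, beside 0.809%. With the section as a block 1 of 4 was called, beside 2.46% of all genes. The one at an unadjusted p under 0.05 was ENSMUSG00002076940, with 1, 0, 1, 1 and 1 UMIs in TH+ and 5, 6, 11, 11 and 7 UMIs in TH- libraries, a log2 fold change of -1.60 (SE 0.66, adjusted p = 0.400) and a lower CPM in TH+ cells of 5 of 5 sections. It reached the filter's cutoff of 27.0 CPM in 1 TH+ and 5 TH- libraries. It thus entered the test through the TH- libraries, where it was high, so its test and this order support no difference. Rny3, at 1 to 4 UMIs in TH+ and 2 to 13 in TH- libraries, gave 0.15 (SE 0.54, adjusted p = 0.972). U4-like members summed to 6 UMIs in TH+ and 19 in TH- libraries, or 24.4 and 24.7 CPM on average, with single libraries from 0 to 65.97 CPM, and their difference was not tested.

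None of the partner lists held a called gene in this comparison by edgeR or DESeq2, beside 0.83% and 0.809% of all genes. Of their genes 0 had an unadjusted p under 0.05, beside 8.85% of all genes. Genes tested numbered 4 of the 7SK particle, 4 of the signal recognition particle and its receptor, 2 of the Y RNA partners, 7 spliceosomal, 1 box C/D, 10 of miRNA processing, 6 hosts and 3 nuclear long noncoding RNAs. No box H/ACA or RNase P gene passed the filter. Ro60 differed by 0.06 (SE 0.35, adjusted p = 0.986).

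In the 3 wells of 3T3 cells Rny1 was the most counted member, and Mir6236 was almost absent. Rny1 stood at 553, 660 and 638 CPM in the 3 wells, below every layer library and above the lowest TH- library. Rny3 had 1, 5 and 4 UMIs. Mir6236 had 1, 0 and 0 UMIs, a mean of 2.46 CPM beside 1849 to 2497 CPM in the retinal groups. The fibroblast genes held 3.18% to 4.07% of UMIs in these wells. Retina and culture were separate experiments, so no test was made between them.

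ENSMUSG00002076940 stood out in the other direction. It had 288, 257 and 136 CPM in the 3T3 wells, from 39, 53 and 27 UMIs, above the highest retinal library at 91.5 CPM. A deeper run of well 2 gave 210 UMIs for it, or 709 CPM, against 257 CPM in the first run, whereas Rny1 gave 608 and 660 CPM, so that the hairpin was above Rny1 in the deeper run alone. The hairpin's level in well 2 thus depended on the run while that of Rny1 differed little. ENSMUSG00002075764, another annotated miRNA, between genes on chromosome 4, had 45 UMIs in the deeper run and 4 in the first. In all, 16 of the 307 members had a UMI in the 3 wells.

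In HEK cells of the same wells almost no UMIs fell on Y RNA symbols. RNY1, RNY3 and RNY4 had 0 of 238708 UMIs over the 3 wells, which allows up to 12.6 CPM, and RNY5 had 3, 0 and 1 UMIs. All 6989 human small RNA rows together held 27, 22 and 37 UMIs, a share of 0.0400% ± 0.0177 (SD, n = 3 wells), while the 3T3 share above covers the members alone. Human symbols of Scarna2, Rpph1, the RNase MRP RNA and the 7SK RNA were at 0 in each well. Whether these zeros reflect expression or recovery was not tested.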

How the data were processed

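The deposited count of a gene counts its distinct UMIs, and the authors deposited it without normalization. Per the labels and the study's methods, the authors extracted barcodes with UMI-tools 1.1.1, mapped reads with STAR 2.7.9a to GENCODE genes (mm39, hg38), dropped reads with several matches, assigned the rest with featureCounts on its default settings (exons, no strand) and collapsed UMIs per gene. They removed 2 ribosomal RNA genes. Members and gene lists were chosen with earlier results of these data known.

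CPM are UMIs scaled to a library's deposited total. Tests used the quasi-likelihood test of edgeR 4.0.16 (R 4.3.3) with TMM, a filter of 3 UMIs and 10 in total, and Benjamini-Hochberg adjustment at 0.05, with 1 fit over 12 layer libraries and 1 over 10 amacrine libraries. The fit was tested on simulated data. DESeq2 1.42.0 was an alternative. A standard error is the log2 fold change divided by the square root of F. Counting intervals and floors cover counting error only. Positions come from a later GENCODE release on GRCm39, matched by Ensembl identifier, and copies from BLAST 2.17.0 with a word size of 11.

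Named genes were the 25 members with the most UMIs, every called member, the 10 most counted miRNA members, their hosts, up to 4 genes of each of 10 partner lists with the smallest adjusted p and human counterparts. Mir194-2, Mir6926, Mir7055, RNY4 and RNY5 were named after their values were seen. Libraries pair by section, since the groups of a number were cut from the same section. After group means were removed, same-section residuals correlated at 0.0116 to 0.0493 over 12 layer pairs and at 0.0287 to 0.257 over 5 amacrine pairs. A pooled layer library was not used here, and 1 sequence is not reported here.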

Additional observations from a re-analysis of the deposited data

Results flagged for a closer look

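A library far from the others of its group was found in 4 of 49 groups, which covered each tested member's CPM and the share of UMIs that all members held, and chance gives such a gap in about 1 in 20 groups. Mir6240 was high in section 4 of the ONL (64.5 CPM) and of the BCL (59.3 CPM). Gm25995 was high in the BCL of section 1 (20.6 CPM). Rpph1 was present in the GCL of section 1 alone (1.27 CPM, from 1 UMI).

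Small RNAs whose symbol stands for several rows of the gene table fall outside the rule, and some were well counted. The 7SK RNA, a regulator of transcription elongation with 330 rows, had 1040 UMIs in the layers, at 242 ± 56.7 CPM (ONL), 265 ± 49.5 (BCL) and 114 ± 19.1 (GCL; SD, n = 4). By edgeR it was 1.19 higher on the log2 scale in the ONL than in the GCL (SE 0.14, adjusted p = 1.23e-10) and 1.04 higher in the BCL than in the GCL (SE 0.16, adjusted p = 6.18e-07). U6, with 486 rows, had 113 UMIs and was higher in the ONL (30.6 ± 13.8 CPM) than in the GCL (14.2 ± 5.66 CPM, SD, n = 4; adjusted p = 0.00308 by edgeR). Vault RNA had 65 UMIs and no call, and U4 had 12 UMIs.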

How the results depend on the processing

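Alternatives were 8 settings and each section left out. For the ONL against the GCL 8 members were called, 4 with edgeR's default filter, which tested 7 members, 12 with no filter, and 7 to 9 with a section left out. For the BCL against the GCL 3 were called, 5 on library totals, with DESeq2 and with no low-count filter, and 2 to 4 with a section left out. For the ONL against the BCL 2 were called, and 2 to 3 under all alternatives. For TH+ against TH- the count was 0, and 1 with the section as a replicate block, the pairing by section. In the layers the block gave 2, 8 and 3 calls, as without it. No called value changed sign. With 3 or more UMIs as the rule, 70 members remain of 307. The other settings moved no share beyond its SD. The cause of these changes was not tested, apart from the smaller number of genes under the stricter filter. Depth limits most members, since 191 of 307 rest on 1 UMI.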
